A study of Mus musculus with 6 samples.

Results

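The genes described here are 8 regulators of skeletal muscle identity, Pax7, Myf5, Myod1, Myog, Myf6, Six4, Mef2a and Mef2c, together with the transcriptional cofactor gene Vgll2. They are 9 of the 35275 genes in the deposited table and were chosen by name, the 8 regulators for their known role and Vgll2 for its lower level in tongues without Aim2. The tongues came from mice with the Aim2 KO genotype and from WT (wild type) mice, with 3 libraries each. Aim2 encodes a sensor of cytosolic DNA. All animals had taken the carcinogen 4NQO (4-nitroquinoline 1-oxide) at 100 µg/ml in their drinking water over 20 weeks, so the control mice share this exposure and no untreated tongue was analysed here. The labels used here give no strain, sex or age, and do not say whether each library is 1 mouse; the p-values here measure only how much these libraries vary. Levels are FPKM, a read number scaled to gene length and to the read total of the library, and errors are SD over the 3 libraries of a group.

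Skeletal muscle is built and repaired from satellite cells, which carry the paired box factor Pax7. When they are activated, the basic helix-loop-helix factors Myf5 and Myod1 set the myoblast fate, and Myog and Myf6 act in differentiation and in mature fibres. Homeobox factors such as Six4 act upstream of these genes, and Mef2 factors switch on contractile genes together with them. Vgll2 binds TEAD factors in place of the Yap cofactors, is expressed in skeletal muscle, and is known for its part in fibre type programmes. The bulk of the tongue is striated muscle under a stratified squamous epithelium.

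Recovered read totals ran from 21959204 to 25369400 per library. For the targeted gene Aim2, reads numbered 3, 4 and 10 in Aim2 KO replicates 1 to 3 and 14, 25 and 30 in wild type replicates 1 to 3. The labelled tissue showed its markers in each library. The skeletal muscle level, which is the mean log2(FPKM + 1) of 18 muscle genes shared by fibre types, was 7.37, 7.76 and 7.57 in wild type replicates 1 to 3 and 7.65 and 7.57 in Aim2 KO replicates 2 and 3. It was 6.61 in Aim2 KO replicate 1, and all 18 muscle genes were lowest there. This library stands apart in the members as well, so the differences of the tested members and the list medians are also given without it.

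Promoter windows of 300 bases, 250 before and 50 after the RefSeq transcript start (build GRCm38.p6), were found for 7 of the 9 genes, with 10 windows in all. Entries for Myod1 and Myf6 were missing. The windows of Vgll2, which separated the genotypes, of Myog, which went with the muscle level, and of Mef2a, which varied least, are shown 5′ to 3′ on the strand of the gene. Capitals mark matches to the E-box CANNTG (the site class of myogenic helix-loop-helix factors), the MEF2 consensus, the MEF3 motif TCAGGTT (bound by Six4 and related factors) and the M-CAT motif CATTCC (bound by TEAD factors), searched on both strands.
Vgll2 (chr10:52022252-52022551, plus strand): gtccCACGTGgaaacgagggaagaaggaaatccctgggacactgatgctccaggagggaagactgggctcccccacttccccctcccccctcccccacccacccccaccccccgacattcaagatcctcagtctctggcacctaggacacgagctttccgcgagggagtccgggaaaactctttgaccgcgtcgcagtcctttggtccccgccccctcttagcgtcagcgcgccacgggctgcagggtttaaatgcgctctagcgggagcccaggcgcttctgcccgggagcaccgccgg
Myog (chr1:134289754-134290053, plus strand): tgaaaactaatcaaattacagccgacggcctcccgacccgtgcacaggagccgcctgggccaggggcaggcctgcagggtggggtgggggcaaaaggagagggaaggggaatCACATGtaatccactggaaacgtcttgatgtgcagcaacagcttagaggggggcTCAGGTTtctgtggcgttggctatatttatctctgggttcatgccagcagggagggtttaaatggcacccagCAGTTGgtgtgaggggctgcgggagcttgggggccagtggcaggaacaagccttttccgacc
Mef2a (chr7:67372809-67373108, minus strand): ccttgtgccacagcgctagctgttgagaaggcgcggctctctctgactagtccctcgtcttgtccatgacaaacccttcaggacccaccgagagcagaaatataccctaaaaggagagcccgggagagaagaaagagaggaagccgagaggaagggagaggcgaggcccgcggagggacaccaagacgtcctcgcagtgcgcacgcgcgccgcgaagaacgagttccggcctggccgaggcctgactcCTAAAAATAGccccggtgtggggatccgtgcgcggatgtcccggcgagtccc

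The Vgll2 window held 1 E-box, CACGTG, beginning at position -246 from the start. The Myog window held 2 E-boxes, CACATG at -138 and CAGTTG at -12, and the MEF3 motif at -84. The Mef2a window held the MEF2 consensus at -2, across its own start. Elsewhere, the first Mef2c window held E-boxes, MEF3 and M-CAT, and 1 Six4 window held MEF3, while no searched motif lay in the Pax7 and Myf5 windows. None of the matches overlapped another motif. Of 32851 promoter windows of this length, 72.3% held an E-box, 3.19% the MEF2 consensus, 4.07% MEF3 and 14.7% M-CAT. Among the 10 member windows 4 held an E-box, 1 MEF2, 3 MEF3 and 1 M-CAT. A match is a string of letters in this window and was not tested for binding.

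Vgll2 (ENSMUSG00000049641; chromosome 10, 52022502 to 52028471, plus strand) had 4.81, 6.84 and 6.79 FPKM in Aim2 KO replicates 1 to 3 and 7.99, 10.3 and 8.93 FPKM in wild type replicates 1 to 3. Every Aim2 KO library was below every wild type library, as this gene was picked to be. The group means were 6.15 ± 1.16 and 9.09 ± 1.18 FPKM, a ratio of 0.677, and the log2 difference was -0.50 on the log2(FPKM + 1) scale that is used for all log2 differences below. These levels rested on 179, 282 and 246 reads in Aim2 KO and 324, 414 and 374 reads in wild type. The values chose the gene, so they are a description and carry no test. Groups that do not overlap, with Aim2 KO lower, were found for 1.48% of the 12144 genes tested. The separation was also present after median-of-ratios scaling and after rescaling to TPM. Without Aim2 KO replicate 1 the log2 difference was -0.36, since the other Aim2 KO libraries averaged 6.81 FPKM, or 0.75 of the wild type mean. In bulk tissue, fewer cells of a type and less RNA per cell cannot be told apart.

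**Figure D1:**
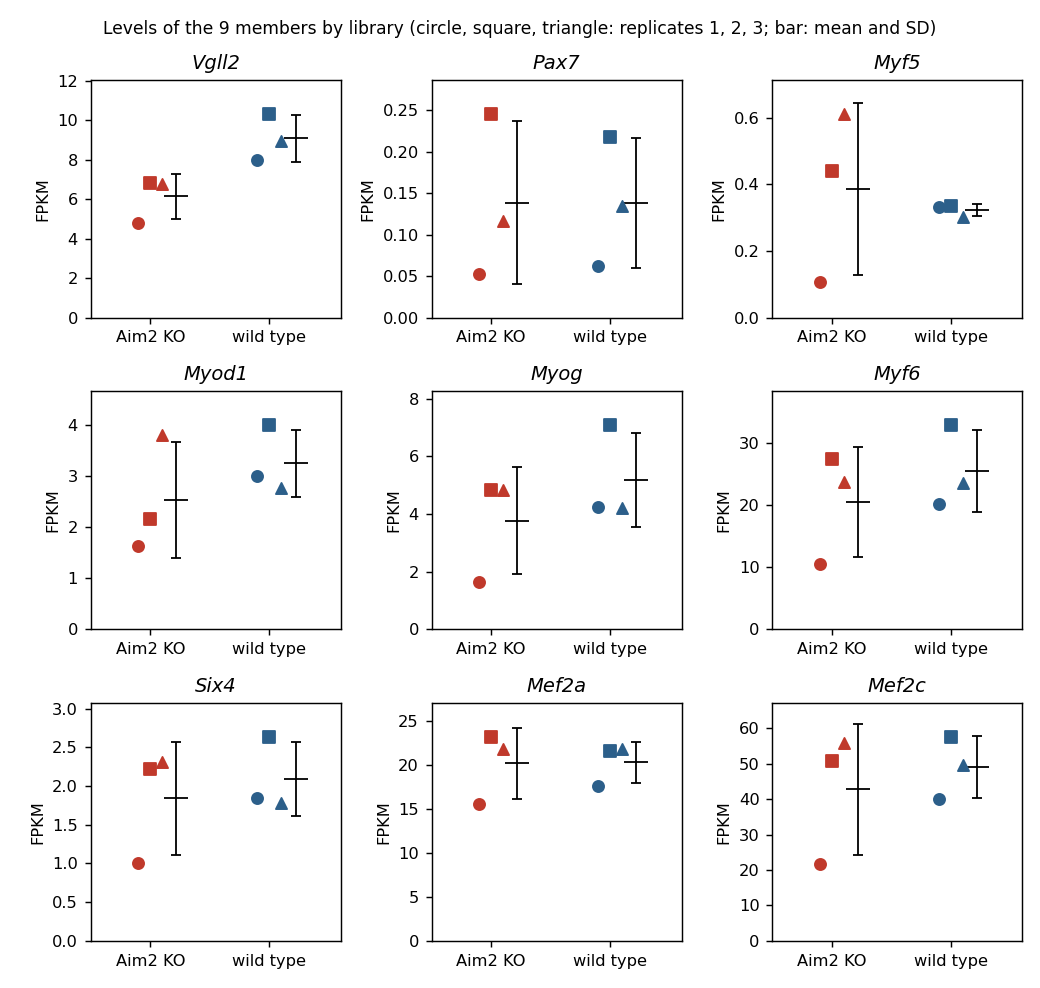
FPKM of each of the 9 genes in every library, with Aim2 KO in red and wild type in blue, replicates 1, 2 and 3 as circle, square and triangle, and the mean with its SD beside the points. Vgll2 is the member whose groups do not overlap, and in all 9 panels the lowest library is Aim2 KO replicate 1.

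The satellite cell gene Pax7 and the early myoblast gene Myf5 were near the limit of detection. Pax7 (ENSMUSG00000028736; chromosome 4, 139737062 to 139833528, minus strand) had 0.0531, 0.246 and 0.117 FPKM in Aim2 KO and 0.0625, 0.218 and 0.135 FPKM in wild type. The groups overlapped throughout, and the means were 0.139 ± 0.0983 and 0.139 ± 0.0779 FPKM. Between 7 and 36 reads per library lay behind these values. With reads pooled by genotype, the Aim2 KO rate was 1.03 times the wild type rate. The exact (Clopper-Pearson) 95% interval of this ratio was 0.707 to 1.51, for counting error alone. A change within that range was not detectable at this depth. The interval leaves out the variation between libraries, so a change beyond it could be missed as well.

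Myf5, the earliest of the myogenic helix-loop-helix factors (ENSMUSG00000000435; chromosome 10, 107482908 to 107486134, minus strand), had 0.106, 0.442 and 0.612 FPKM in Aim2 KO and 0.332, 0.336 and 0.303 FPKM in wild type. The wild type libraries were close together, and the Aim2 KO libraries lay on either side of them. Reads numbered 5, 23 and 28 against 17, 17 and 16, and the pooled rate ratio was 1.20 (interval 0.802 to 1.79). The ratio of mean FPKM was 1.19 with all libraries and 1.63 without Aim2 KO replicate 1. Pax7 and Myf5 had means under 1 FPKM and were not among the genes tested.

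Of the other 6 regulators, all of which were tested, 0 passed an adjusted p under 0.05 by limma, and 0 passed an unadjusted p under 0.05. Over all genes tested, the share called was 0% lower and 0.00823% higher at the adjusted threshold, and 0.576% lower and 1.93% higher at the unadjusted one. All 6 had a log2 difference below 0, as did 42.8% of genes tested. Their groups overlapped in each case.

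Myod1, which can convert other cells to muscle (ENSMUSG00000009471; chromosome 7, 46376474 to 46379092, plus strand), had 1.63, 2.16 and 3.81 FPKM in Aim2 KO and 3.01, 4.00 and 2.76 FPKM in wild type. Aim2 KO replicate 3 was near the top of the wild type range, and the other Aim2 KO libraries were below it. The log2 difference was -0.31 (95% interval -0.85 to 0.24, limma adjusted p = 0.9998), and -0.12 without Aim2 KO replicate 1 (interval -0.59 to 0.35). Without Aim2 KO replicate 3 it was -0.55 (interval -0.99 to -0.12, limma unadjusted p = 0.0205), which did not pass adjustment over all genes.

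Myog, or myogenin, a factor of terminal differentiation (ENSMUSG00000026459; chromosome 1, 134289989 to 134292548, plus strand), had 1.63, 4.84 and 4.84 FPKM in Aim2 KO and 4.24, 7.08 and 4.22 FPKM in wild type. Aim2 KO replicates 2 and 3 lay inside the wild type range. The log2 difference was -0.43 (interval -1.20 to 0.34, adjusted p = 0.9998 by limma), and -0.05 without Aim2 KO replicate 1 (interval -0.50 to 0.40).

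Myf6, also called MRF4, is the myogenic factor of mature fibres (ENSMUSG00000035923; chromosome 10, 107492860 to 107494729, minus strand). It lies 6725 bases from Myf5 on the same strand, and their levels differed widely. Myf6 had 10.6, 27.4 and 23.7 FPKM in Aim2 KO and 20.2, 32.9 and 23.6 FPKM in wild type. Its mean was the highest of the 4 myogenic helix-loop-helix genes on this length-scaled measure. The log2 difference was -0.37 (interval -1.16 to 0.41, limma adjusted p = 0.9998) and turned to 0.02 without Aim2 KO replicate 1 (interval -0.41 to 0.46). The other Aim2 KO libraries averaged 25.6 FPKM, equal to the wild type mean of 25.6 FPKM to 3 digits.

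Six4, a homeobox factor that acts on myogenic promoters (ENSMUSG00000034460; chromosome 12, 73099609 to 73113456, minus strand), had 1.00, 2.22 and 2.30 FPKM in Aim2 KO and 1.84, 2.63 and 1.79 FPKM in wild type. The log2 difference was -0.14 (interval -0.67 to 0.38, limma adjusted p = 0.9998), and 0.09 without Aim2 KO replicate 1 (interval -0.27 to 0.45). As for Myog, a single Aim2 KO library lay below the wild type range.

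Mef2c, a MADS box factor of muscle (ENSMUSG00000005583; chromosome 13, 83504034 to 83667079, plus strand), had 21.7, 50.8 and 55.9 FPKM in Aim2 KO and 40.1, 57.5 and 49.5 FPKM in wild type. It was the most abundant member. The log2 difference was -0.29 (interval -1.07 to 0.49, limma adjusted p = 0.9998), and 0.13 without Aim2 KO replicate 1 (interval -0.22 to 0.49). Mef2c is also transcribed in endothelium, whose marker level was likewise lowest in Aim2 KO replicate 1, as given below.

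Mef2a, a broadly expressed family member (ENSMUSG00000030557; chromosome 7, 67231163 to 67372858, minus strand), had 15.6, 23.2 and 21.8 FPKM in Aim2 KO and 17.6, 21.5 and 21.8 FPKM in wild type. It had the narrowest relative range of the 9 genes, and its log2 difference was -0.02 (interval -0.40 to 0.36, limma adjusted p = 0.9998), or 0.14 without Aim2 KO replicate 1 (interval -0.14 to 0.43). An exon of Mef2a overlaps Lysmd4 on the opposite strand, and the strand setting of the counting is not given in the sources used here, so reads of the overlap cannot be assigned.

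**Figure D2:**
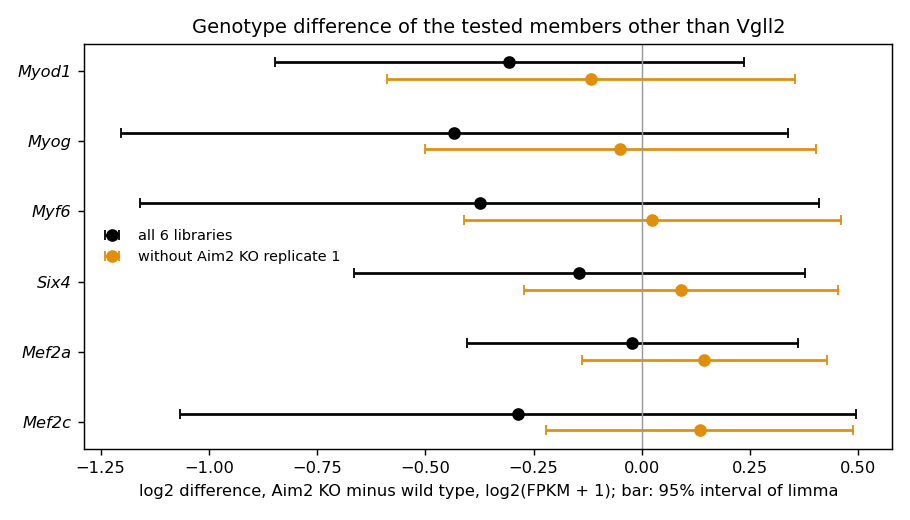
Log2 difference of Aim2 KO minus wild type for the 6 tested regulators other than Vgll2, with 95% intervals of limma, for all 6 libraries in black and without Aim2 KO replicate 1 in orange. Every interval spans 0, and without that library the estimates lie between -0.12 and 0.14.

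The order of mean levels over the 6 libraries was Mef2c (45.9 FPKM), Myf6 (23.1), Mef2a (20.3), Vgll2 (7.62), Myog (4.48), Myod1 (2.89), Six4 (1.97), Myf5 (0.355) and Pax7 (0.139). FPKM is scaled by gene length, so these levels can be set beside each other. The ranges of Mef2a and Vgll2 did not overlap, nor did those of Six4 and Myf5. The other neighbours overlapped in range. Mef2c was nevertheless above Myf6, and Vgll2 above Myog, within each of the 6 libraries, whereas Myf6 and Mef2a changed places between libraries.

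The members varied together from library to library. Aim2 KO replicate 1 had the lowest value of the 6 libraries for all 9 genes. Leaving out Vgll2, which was picked for low Aim2 KO values, this held for 6 of the 6 tested regulators, compared with 34.2% of all genes tested. Wild type replicate 2 had the highest value for 5 of these 6, against 13.1% of all genes tested. The same libraries were the lowest and the highest in skeletal muscle level. The mean skeletal muscle level was 7.28 ± 0.58 in Aim2 KO and 7.57 ± 0.19 in wild type, a difference of -0.29 (exact permutation test, two-sided, p = 0.7, where 0.1 is the smallest possible with 3 against 3). Without Aim2 KO replicate 1 it was 0.04. These patterns were noticed in the data and are descriptions of the 6 libraries.

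The members were therefore also expressed relative to the muscle level of their own library, as log2(FPKM + 1) of the gene minus that level. For Vgll2 this gave -4.21, -4.26 and -4.26 in wild type and -4.68 and -4.61 in Aim2 KO replicates 2 and 3. In Aim2 KO replicate 1 it was -4.07, the highest of the 6. Relative to muscle, then, the groups of Vgll2 overlapped, with the Aim2 KO libraries on either side of a narrow wild type range, and the mean difference was -0.21. It was -0.40 without Aim2 KO replicate 1. The order of these libraries was the same with a pseudocount of 0.1, where replicate 1 of Aim2 KO was at -4.28, the wild type libraries between -4.38 and -4.33, and the other Aim2 KO libraries at -4.83 and -4.77. The position of Aim2 KO replicate 1 depended on the muscle genes used. With the fast and slow fibre lists as the muscle level, Vgll2 was at -2.26 in that library, -2.59 and -2.52 in the other Aim2 KO libraries, and -2.18, -2.00 and -2.09 in wild type, and the groups did not overlap. Of the 11 slow genes in that measure 6 were under the expression filter. In Aim2 KO replicates 2 and 3 Vgll2 was below wild type by each of these measures. The part of muscle content in the Vgll2 difference was not tested.

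For the other 8 members, the values relative to muscle gave an unadjusted p of 0.2 or more (8 exact permutation tests, two-sided). The smallest p possible with 3 against 3 is 0.1, so these tests could not call a difference at a usual threshold. No conclusion is drawn from them. For Pax7 and Myf5 they mostly test the muscle level again, because of the pseudocount, as given below. Without Aim2 KO replicate 1, the genotype differences of the 8 members relative to muscle lay between -0.16 and 0.16. Mef2c was at -2.11, -1.95 and -1.74 in Aim2 KO and -2.01, -1.89 and -1.91 in wild type, a mean difference of 0.00. Myf6 was at -3.08, -2.82 and -2.95 against -2.97, -2.67 and -2.95, and Myog at -5.22, -5.10 and -5.03 against -4.98, -4.74 and -5.19. These genes stayed within 0.37 to 0.47 log2 units over the 6 libraries, while the muscle level itself spanned 1.15. Myod1 spread further, with -5.99 in Aim2 KO replicate 2 against -5.66 to -5.22 in the other libraries. Mef2a was highest in Aim2 KO replicate 1, at -2.56 against -3.26 to -3.05 elsewhere. The relative values of Pax7 and Myf5 in that library, -6.54 and -6.47, mostly follow the muscle level, because a pseudocount of 1 flattens genes below 1 FPKM.

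**Figure D3:**
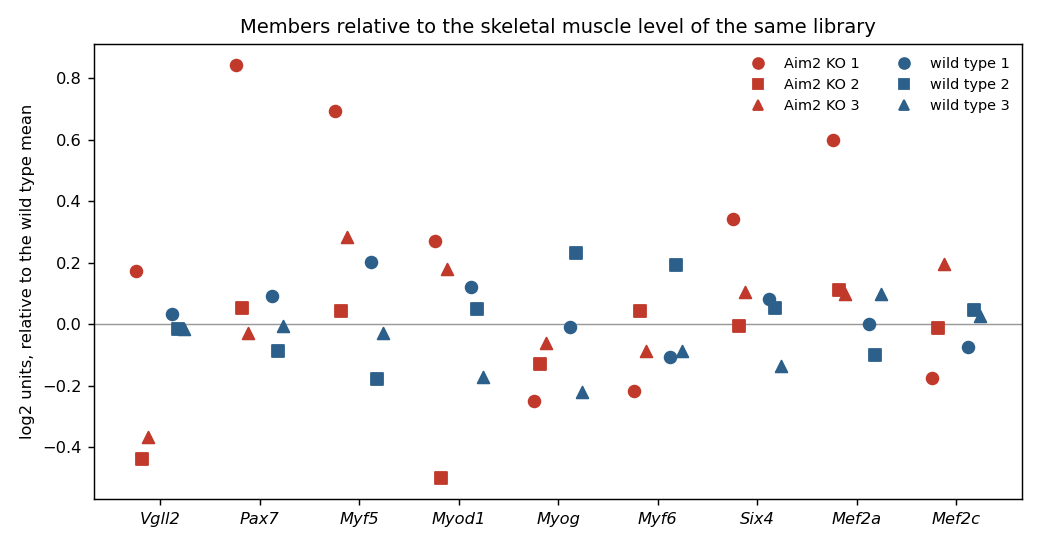
Log2(FPKM + 1) of each member minus the skeletal muscle level of its library, shown relative to the wild type mean, with colours for genotype and symbols for replicate. For Vgll2 the Aim2 KO libraries 2 and 3 lie below a tight wild type cluster and library 1 lies above it.

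Other tissue markers varied along with the muscle level. In Aim2 KO replicate 1 the fibroblast level was 2.34 (3.61 to 3.96 in the other Aim2 KO libraries, 2.95 to 3.55 in wild type), and 9 of 10 fibroblast genes were lowest there. The endothelial level was 1.54 (2.46 and 2.71, and 1.98 to 2.45 in wild type), with 11 of 11 genes lowest, and the Schwann cell level 1.62 (2.90 and 2.96, and 2.31 to 2.79), with 6 of 7 tested genes lowest. The epithelial level was highest there, at 10.61 against 9.96 to 10.45 elsewhere, with 10 of 13 genes highest. The leukocyte level was 2.11 to 2.62 in Aim2 KO and 1.64 to 1.76 in wild type, so the genotypes did not overlap. Within Aim2 KO it was lowest in replicate 1, and within wild type highest in replicate 2, as was the muscle level. None of the defining markers of these cell types was at 0 in any library. Among the satellite cell markers, Cdh15 had 0.984 to 2.01 FPKM and Chodl 0.560 to 2.64 FPKM. Calcr was listed at 0 in 1 library and reached 0.138 FPKM at most. How far tissue composition accounts for the member values was not tested.

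**Figure D4:**
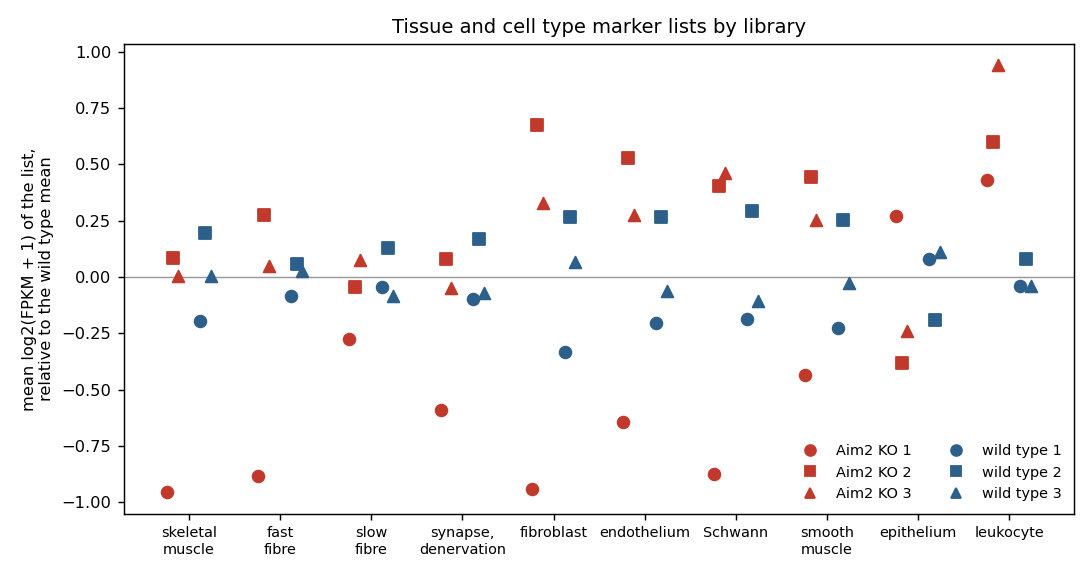
Mean log2(FPKM + 1) of tissue and cell type marker lists in each library, relative to the wild type mean, with colours for genotype and symbols for replicate. Aim2 KO replicate 1 is lowest for muscle, fibroblast, endothelial, Schwann and smooth muscle lists and highest for epithelium.

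The relatives and TEAD partners of Vgll2 were also examined. In the list of Vgll cofactors, TEAD factors, Yap1 and Wwtr1, 8 of 10 genes were tested and 0 passed the adjusted threshold in either direction. Leaving out Vgll2, 5 of 7 had a negative log2 difference, as had 42.8% of all genes tested. The median was -0.09, beside 0.02 for all genes tested. The median of the 7 was 0.01 without Aim2 KO replicate 1, beside 0.06 for all genes tested without that library. The later list medians are to be read beside these all-gene medians. The groups of all 7 overlapped, as did those of most genes. Groups were apart for 1.48% of all genes tested with Aim2 KO lower and for 4.98% with Aim2 KO higher. Tead4, a TEAD factor of muscle precursors, had 6.33, 5.06 and 4.87 FPKM in Aim2 KO and 5.90, 5.38 and 7.61 FPKM in wild type. Tead3 had 9.57 ± 0.420 against 10.3 ± 0.519 FPKM, and Vgll4, which also binds TEAD factors, had 25.6 ± 1.79 against 23.0 ± 2.15 FPKM.

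The wider regulators of muscle identity showed the same dependence on 1 library. Of 12 genes for Pax factors, Six4 and related homeobox factors, and the Eya and Dach cofactors, 8 were tested, 0 passed, and the median log2 difference was -0.13, or 0.06 without Aim2 KO replicate 1. In 6 of the 8 the lowest library was again Aim2 KO replicate 1. Eya2 and Eya3 encode coactivators of these homeobox factors and had positive differences. Eya2 had 11.4, 13.3 and 11.9 FPKM in Aim2 KO and 10.3, 10.7 and 10.4 FPKM in wild type, with no overlap (limma log2 difference 0.20, adjusted p = 0.9998), and Eya3 had 10.3 ± 0.643 against 9.26 ± 0.381 FPKM, also with no overlap. Groups apart with Aim2 KO higher were found for 4.98% of all genes tested, and for 2 of these 8.

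A further list held Tbx1, known for progenitors of head muscle, and other early muscle regulators, among them Lbx1. Whether the muscle of these tongues comes from such progenitors was not examined. Of the 9 listed genes 6 were tested and 0 passed. All 6 had a negative log2 difference, as had 42.8% of all genes tested, and their median was -0.17 (-0.09 without Aim2 KO replicate 1). Tbx1 had 38.4, 74.0 and 56.2 FPKM in Aim2 KO and 57.4, 79.0 and 63.0 FPKM in wild type, and Lbx1, a factor of migrating muscle precursors, had 6.18 ± 2.05 against 7.27 ± 0.960 FPKM. The groups of all 6 overlapped.

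The cofactors of the myogenic and Mef2 factors showed no called gene. Of 16 tested E proteins, Id proteins and other helix-loop-helix partners or repressors, 0 passed, 12 were positive and the median was 0.08. Without Aim2 KO replicate 1 the median was 0.20 and 3 were negative. Id2, which blocks E proteins, had 24.7 ± 4.62 FPKM in Aim2 KO against 20.0 ± 2.07 FPKM. Tcf3, which encodes the E proteins E12 and E47, had 17.6, 15.7 and 17.2 FPKM against 13.9, 14.4 and 15.4 FPKM, with no overlap (limma adjusted p = 0.9998). It was the 1 gene of these 16 with groups apart. With Aim2 KO higher, 4.98% of all genes tested were apart. In the list of Mef2 factors, class IIa deacetylases and their kinases 10 of 13 were tested, 0 passed, and the median was -0.01, or 0.10 without Aim2 KO replicate 1. Mef2d, which is in muscle alongside Mef2a and Mef2c, had 23.9 ± 4.36 against 25.1 ± 3.18 FPKM.

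Satellite cell markers beyond Pax7 gave 9 tested genes of 17, with 0 called and a median of -0.03, or 0.05 without Aim2 KO replicate 1. Itga7, an integrin of satellite cells and fibres, had 6.61, 13.9 and 12.5 FPKM in Aim2 KO and 10.7, 18.6 and 12.7 FPKM in wild type, lowest and highest in the same libraries as the muscle level. Cxcr4 had 1.79, 1.97 and 2.42 FPKM in Aim2 KO against 1.10, 1.53 and 1.35 FPKM in wild type, with no overlap (limma log2 difference 0.39, adjusted p = 0.9998). Cxcr4 is also a leukocyte chemokine receptor, and 8 of 10 tested leukocyte genes were apart in the same direction, beside 4.98% of all genes tested. The source of the Cxcr4 reads was not tested.

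Fibre type genes were examined because Vgll2 and Mef2 factors act on them. The slow minus fast level, on the log2 scale, was -4.91, -5.85 and -5.50 in Aim2 KO and -5.49, -5.45 and -5.64 in wild type, so fast isoforms dominated in every library. In Aim2 KO replicate 1 the fast level was 6.97 against 7.77 to 8.13 elsewhere, and the slow level 2.05 against 2.24 to 2.45. With a pseudocount of 0.1 the lowest slow minus fast value moved from Aim2 KO replicate 2 to wild type replicate 3. The part of muscle content in these values was not tested. The genotypes did not differ beyond the spread of libraries (difference 0.10, exact permutation test, two-sided, p = 0.9, where 0.1 is the smallest possible). Without Aim2 KO replicate 1 the difference was -0.15 (exact p = 0.4, where the smallest possible p is higher). Of 14 fast genes 13 were tested, 0 passed and 12 were negative, beside 42.8% of all genes tested. Their median was -0.21, or 0.19 without that library. Myh1, the fast IIx myosin heavy chain, had 467, 554 and 693 FPKM in Aim2 KO and 717, 966 and 723 FPKM in wild type. It was the 1 fast gene whose groups did not overlap (limma log2 difference -0.49, adjusted p = 0.9998). Groups apart with Aim2 KO lower were found for 1.48% of all genes tested. Of 11 slow genes 5 were tested and 0 passed, with a median of -0.15, or -0.11 without that library. Among them Tnnt1, slow troponin T, had 1.76, 4.50 and 5.20 FPKM against 4.80, 9.22 and 3.57 FPKM, and Myoz2 had 10.1 ± 3.65 against 14.6 ± 5.06 FPKM.

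Genes of the neuromuscular synapse and of the response to denervation, several of which are targets of Myog, were negative in 15 of 17 tested. Over all genes tested, 42.8% were negative. In this list 0 were called and the median was -0.21. Without Aim2 KO replicate 1 the median was 0.03 and 7 were negative, and 15 of the 17 were lowest in that library. Chrna1, the acetylcholine receptor alpha subunit, had 1.18, 2.76 and 2.19 FPKM in Aim2 KO and 2.25, 3.13 and 2.91 FPKM in wild type. Its lowest and highest libraries were those of Myog, and equally those of the skeletal muscle level. Musk, the kinase that organises the synapse, had 2.14 ± 0.481 against 2.79 ± 0.557 FPKM, and Dok7, its adaptor, had 3.57 ± 1.25 against 4.87 ± 0.886 FPKM.

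Genes whose log2(FPKM + 1) was among the most like that of Vgll2 over the 6 libraries, among 12143 others, were Pex6 (Pearson r = 0.986), Wdtc1 (0.977), Zfp367 (0.971) and Mafa (0.965). With 6 libraries and so many genes these values are a description. Pex6, a peroxisomal import ATPase, had 9.40, 10.3 and 10.4 FPKM in Aim2 KO and 10.6, 11.2 and 10.9 FPKM in wild type. Mafa, a bZIP transcription factor, had 9.45, 10.7 and 11.1 FPKM against 13.3, 16.0 and 15.1 FPKM. In these 4 the Aim2 KO libraries lay at the bottom, except that Zfp367 had 5.19 FPKM in Aim2 KO replicate 3 and 5.15 FPKM in wild type replicate 1. This order largely follows from the choice of genes like Vgll2, which was itself picked for low Aim2 KO values. The 6 tested regulators were not among the 5 genes with the highest r, and Pax7 and Myf5 were not compared. Only 5 of 12143 genes can be there, so this says little about the members.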

How the data were processed

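The FPKM values are as the authors deposited them, 1 column per library, matched to samples by library name. Per the labels' protocols, a sequencing company built the libraries from total RNA of the tongue. The sources used here name no aligner, counter, build or annotation. Coordinates of 6 of the 9 genes are identical in GENCODE M21 (GRCm38), and those printed are the table's. FPKM times the deposited gene length gave whole reads (within 0.01) for 100% of values above 0, which set the depth.

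A linear model was fitted with limma 3.58.1 in R 4.3.3, with its trend option, to log2(FPKM + 1) of the 12144 genes that averaged 1 FPKM or more, genotype as the only term, two-sided, with Benjamini-Hochberg adjustment over all of them and a threshold of 0.05. The fit was tested on simulated data. Exact permutation tests (scipy 1.17.1) compared single values. Other genes were named as up to 4 of each list with the smallest p and the 5 most like Vgll2, except that a few of these are not reported here. Members and lists were chosen with earlier results of these data known. Alternatives were pseudocounts of 0.1 and 0.5, other filters and scalings, no trend, the replicate number as a block, muscle level as a covariate, and leaving out each library. The fit by voom on recovered reads was chosen after seeing the data.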

Additional observations from a re-analysis of the deposited data

How the results depend on the processing

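No regulator passed the adjusted threshold under any alternative run. Vgll2 was lower in Aim2 KO in each of them, with log2 differences of -0.58 to -0.36 when 1 library was left out. These refits reuse the values that chose Vgll2, so for this gene they are a description and no support. The number of genes called higher in the whole table was 1. It was 0 without a filter, 0 with a filter at 0.1 FPKM, 0 after rescaling to TPM and 18 with the muscle level as covariate, and 0 to 12 when 1 library was left out. The number lower was 0, 2 with the covariate, and 0 to 2 when 1 library was left out. With the replicate block 0 genes were called in either direction. Correlations of same-numbered libraries, after subtracting the group mean of each gene, were 0.351, 0.458 and 0.0302. Aim2 KO replicates 1 and 2 correlated best with the wild type library of their own number. Aim2 KO replicate 3 correlated best with wild type replicate 2 (0.213), and the numbers were not taken to pair the libraries.

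With the covariate, which largely sets Aim2 KO replicate 1 apart, the difference turned positive for Six4 (0.066), Mef2a (0.13) and Mef2c (0.079), and stayed negative for Myf6 (-0.0083), Myog (-0.086), Myod1 (-0.14) and Vgll2 (-0.37). Leaving out 1 library gave -0.55 to -0.12 for Myod1, -0.62 to -0.05 for Myog, -0.62 to 0.024 for Myf6, -0.27 to 0.091 for Six4, -0.13 to 0.14 for Mef2a and -0.53 to 0.13 for Mef2c, -0.47 to 0.042 for the muscle level and -0.15 to 0.32 for slow minus fast. Relative to muscle it gave -0.16 to 0.23 for Myod1, -0.15 to 0.011 for Myf6 and -0.092 to 0.092 for Mef2c. With the fibre lists as the muscle level, Six4 was at -0.0049 and Mef2c at -0.15. The cause of these turns beyond the left-out library was not tested. Depth limits Pax7 and Myf5 above all.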

Other observations

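Genes of myoblast fusion and of embryonic muscle were not described above. Of the 18 listed, 16 were in the table and 11 were tested, with 0 called by limma and a median log2 difference of -0.01, or 0.09 without Aim2 KO replicate 1. Myl4, an embryonic and atrial myosin light chain, had 1.08, 3.69 and 2.92 FPKM in Aim2 KO and 3.27, 5.34 and 2.53 FPKM in wild type. Mstn, the secreted inhibitor of muscle growth myostatin, had 2.80, 7.29 and 6.14 FPKM in Aim2 KO and 7.75, 5.76 and 7.05 FPKM in wild type, so its highest library was not the one with the highest muscle level. Cdon, a surface receptor of myoblasts, had 2.66 ± 0.386 against 2.33 ± 0.467 FPKM. All groups overlapped.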
